A study of Canis lupus familiaris with 16 samples.

Results

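The methylated regions compared here are the peaks of 2 pooled lists from the libraries labelled L. One list comes from dogs that had high-grade B-cell lymphoma, a fast-growing tumour of B lymphocytes, and the other from healthy dogs. All 90434 peaks of both lists were taken, out of 145240 peaks in the 4 lists of the study. A peak was called shared when it overlapped a peak of the other group's L list by at least 1 bp, and one-group otherwise. The lymphoma group holds 5 dogs, aged 10, 10, 5, 10 and 13 years, sampled by needle aspirates of enlarged nodes. The healthy group holds 3 dogs, aged 7, 2 and 5 years, whose mononuclear cells were separated from blood. The breeds are mixed in both groups, tumour stage runs from III to V, and no dog carries a labelled treatment. Disease, tissue and age therefore change together between the groups and cannot be told apart. In such bulk DNA, a larger share of a cell type that is methylated at a locus and more methylation per cell cannot be told apart either.

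The assay, MethylCap-seq, captures fragments of methylated DNA and sequences them, so a peak marks a stretch where methylated fragments pile up. In mammalian DNA methyl groups sit mostly on cytosines of CpG dinucleotides. Most CpGs outside CpG islands are methylated in normal cells, while the islands, short CpG-dense stretches found at many gene starts, are mostly free of it. In lymphoid and other cancers islands and their flanks, called shores, often gain methylation while wide CpG-poor regions lose it. Methylation inside a gene body is common in transcribed genes, and enhancers, the distal elements that raise transcription, tend to carry less of it when active.

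There are 45623 lymphoma L peaks, covering 33.2 Mb, and 44811 healthy L peaks, covering 26.7 Mb. The lists of the companion libraries labelled M-H, from the same dogs, hold 34939 lymphoma and 19867 healthy peaks. The labels do not spell out L and M-H. Each list pools its dogs, with no value per dog and no read count, so the spread between dogs and the sequencing depth are unknown and no test between groups was possible. Intervals below are 95% intervals, Wilson for shares and binomial intervals of the ranked values for medians. They cover counting error over peaks only, not variation between dogs. The fold enrichment printed for a peak was computed by the authors, and its level is not compared between lists. No fold below 6 is listed, so a region without a peak can still hold methylated DNA.

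Of the lymphoma L peaks, 28798 (63.1%, 62.7 to 63.6) were shared and 16825 (36.9%) had no healthy partner. Of the healthy L peaks, 29019 (64.8%, 64.3 to 65.2) were shared and 15792 (35.2%) had no lymphoma partner. These 36.9% and 35.2% are the background against which each class of peaks below is read. Few peaks lay near the edge of the overlap rule. The smallest overlap was 63 bp, and overlaps under 100 bp occurred for 3 lymphoma peaks, of median width 1019 bp and median fold 7.49, and 1 healthy peak, of 438 bp and fold 6.13. Just outside, 16 lymphoma and 12 healthy one-group peaks lay within 100 bp of a peak of the other list, with median widths of 696 and 550 bp and median folds of 8.62 and 6.75. The typical one-group peak was far from any partner. The median gap was 12264 bp for lymphoma and 12732 bp for healthy peaks, and only 5.84% and 5.83% had a gap under 1 kb.

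Shared peaks covered closely matched stretches. In 28406 cases a single peak of each list overlapped, and in these the median width was 652 bp in lymphoma and 613 bp in healthy dogs, with a median difference of 16 bp. The lymphoma peak was the wider one in 56.9% (56.3 to 57.4) of pairs. The healthy peak lay wholly inside the lymphoma peak in 29.7% and the reverse held in 20.1%. Across these pairs the widths had a Spearman correlation of 0.77 and the folds 0.49, given as a description over loci that share libraries and base composition.

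Width separated shared from one-group peaks in the healthy list, where one-group peaks were narrow. Their median width was 397 bp (395 to 399) against 610 bp (605 to 614) for shared healthy peaks. In the lymphoma list the medians were 647 bp (641 to 654) and 655 bp (651 to 660), which do not differ beyond their intervals. The lymphoma one-group peaks instead had a longer upper tail. Their 90th percentile was 1252 bp against 1102 bp for shared peaks. One-group peaks made up 69.1% of healthy peaks under 400 bp and 6.73% of those of 1000 bp or more. In the lymphoma list the matching values were 41.4% and 45.4%, with the lowest share, 31.6%, from 700 to under 1000 bp. The one-group peaks covered 12.6 Mb in lymphoma and 7.11 Mb in healthy dogs.

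Fold enrichment was lower in one-group peaks in both lists. The median was 7.51 against 10.3 for shared lymphoma peaks and 6.95 against 8.55 for shared healthy peaks. Of lymphoma peaks with a fold from 6 to 7, 61.4% were one-group, and of those at 12 or more 10.6% were. In the healthy list these shares were 56.0% and 3.97%. The highest fold of any one-group peak was 21.9 in lymphoma and 16.8 in healthy dogs.

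The fold values are also unevenly spread along the scale. In the healthy list 36.5% of peaks have a fold that is a whole multiple of 0.409, within 0.0001, starting at 15 steps (6.13). This held for 56.6% of the healthy one-group peaks and 25.6% of the shared ones, and the 15792 one-group peaks take just 1792 distinct fold values. In the lymphoma list the step was 0.246, starting at 25 steps (6.16), and 17.6% of one-group and 29.8% of shared peaks fell on it. No label or header says what a step stands for, and its part in the one-group calls was not tested.

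**Figure D1:**
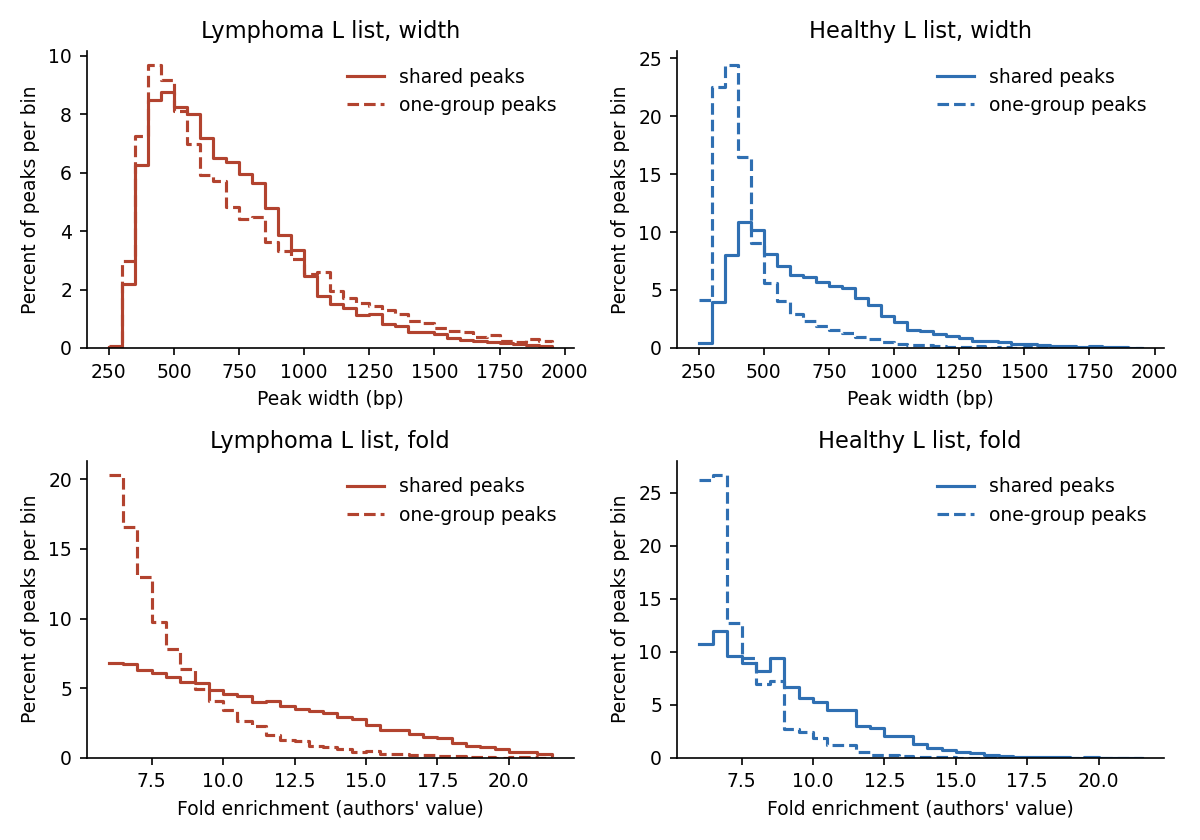
Percent of peaks per bin of width (bp, top) and of the authors' fold enrichment (bottom) for shared (solid) and one-group (dashed) peaks of the lymphoma (left) and healthy (right) L lists. Healthy one-group peaks crowd at the narrow end, with a median of 397 bp against 610 bp, while the lymphoma width curves nearly coincide and both one-group fold curves are highest near 6.

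CpG islands, shores and transcription starts had high one-group shares in lymphoma and low ones in healthy dogs. Of 2035 lymphoma peaks on CpG islands 1364 had no healthy partner, or 67.0% (65.0 to 69.0), against 36.9% of all lymphoma peaks. Of 1359 healthy island peaks 170 had no lymphoma partner, or 12.5% (10.9 to 14.4), against 35.2%. On shores the shares were 51.2% (7442 of 14524) in lymphoma and 15.8% (1252 of 7906) in healthy dogs, and at flagged transcription starts 52.8% and 14.3%. Away from islands and shores the order turned, with 27.6% of lymphoma and 40.4% of healthy peaks being one-group. Islands and shores together held 8802 of the 16825 lymphoma one-group peaks and 1422 of the 15792 healthy ones. With every peak set to 500 bp around its midpoint, the healthy island share was 20.3%, still below the background.

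Gene bodies, defined as intron, coding sequence or 3′ UTR outside the promoter and transcription start flags, held 21285 lymphoma and 22667 healthy peaks. As a whole they stood close to the background, with 34.4% (33.8 to 35.0) of the lymphoma and 37.4% (36.8 to 38.0) of the healthy gene-body peaks being one-group. Inside gene bodies the same island contrast was present. Intragenic island peaks were one-group in 64.4% of lymphoma and 13.7% of healthy cases, intragenic shore peaks in 48.9% and 14.5%, and the other intragenic peaks in 27.1% and 42.4%. The last class is the largest, with 3980 lymphoma and 7892 healthy one-group peaks. Intergenic peaks had nearly equal shares, 33.4% and 33.5%, and intergenic islands were one-group in 69.1% of 366 lymphoma and 6.20% of 258 healthy peaks.

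With distance to the transcription start the one-group share fell step by step in lymphoma, while in healthy dogs only the nearest class stood apart. In lymphoma the one-group share was 52.8% within 1 kb of a start, 45.0% at 1 to 5 kb, 38.0% at 5 to 20 kb, 34.0% at 20 to 100 kb and 30.2% beyond. In healthy dogs it was 22.8% within 1 kb and between 36.8% and 37.9% in the other distance classes. Coding exons had shares of 37.1% and 31.4%, introns 35.1% and 38.4%, and 3′ UTRs 35.0% and 29.1% in lymphoma and healthy dogs.

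Enhancers flagged by the authors held 2133 lymphoma and 1802 healthy peaks. One-group peaks were 42.8% (40.7 to 44.9) of the lymphoma and 33.1% (30.9 to 35.3) of the healthy enhancer peaks, the first above its background of 36.9% and the second close to 35.2%. Enhancer peaks on islands or shores outside promoters were one-group in 55.5% of 641 lymphoma and 12.7% of 324 healthy peaks. Enhancer peaks outside promoters, islands and shores were one-group in 34.0% (31.4 to 36.7) of 1217 lymphoma and 39.1% (36.5 to 41.8) of 1321 healthy peaks. Among all peaks outside islands and shores, promoter peaks included, the shares were the 27.6% and 40.4% given above. The former lies below the interval of the lymphoma enhancer peaks of that kind and the latter inside that of the healthy ones.

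**Figure D2:**
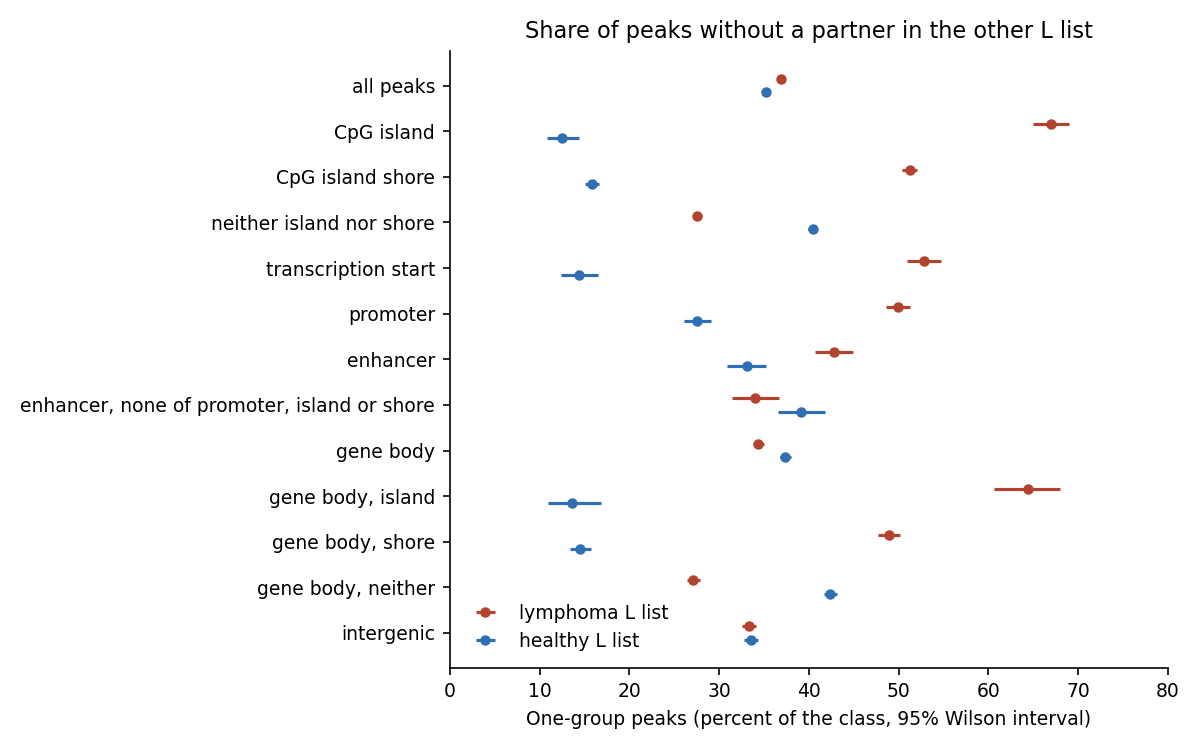
Share of peaks that are one-group (percent, with 95% Wilson intervals) by the authors' annotation class, for the lymphoma (red) and healthy (blue) L lists. Islands and shores lie far to the right for lymphoma (67.0% and 51.2%) and to the left for healthy dogs (12.5% and 15.8%), and the order turns for peaks that are neither.

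The M-H lists, which the overlap rule did not use, gave a second reading of the same loci in the same dogs. Of the lymphoma one-group peaks 11023, or 65.5% (64.8 to 66.2), overlapped a lymphoma M-H peak, against 61.8% of shared lymphoma peaks. The order turned once the peaks were split by islands and shores. On them 83.6% (82.8 to 84.3) of one-group and 86.5% (85.7 to 87.2) of shared lymphoma peaks did so. Away from them the shares were 45.7% (44.6 to 46.8) and 52.7% (52.0 to 53.4). Only 376 healthy one-group peaks, or 2.38% (2.15 to 2.63), overlapped a healthy M-H peak, against 42.6% of shared healthy peaks. The healthy M-H list, the shortest of the 4, overlapped 27.0% of the lymphoma one-group peaks. The part of list length in these shares was not tested. Of the lymphoma one-group peaks, 6704 met a lymphoma M-H peak only, 4319 met one of each group, 231 a healthy M-H peak only and 5571 neither. Of the healthy one-group peaks, 15257 met neither, and 1.82% met a lymphoma M-H peak.

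Width and fold move with this readout, so the shares were also read within classes of each. Among peaks of 1000 bp or more, 92.2% of one-group and 89.8% of shared lymphoma peaks met a lymphoma M-H peak. In the same width class 20.5% (15.9 to 25.9) of 249 one-group and 69.6% of shared healthy peaks met a healthy M-H peak. Under 400 bp the healthy shares were 0.508% and 14.3%. Among healthy peaks with a fold of at least 8, 3.09% of one-group and 47.0% of shared peaks met a healthy M-H peak. Lymphoma one-group peaks below a fold of 8 met a lymphoma M-H peak in 53.3% of cases, against 21.1% of shared peaks of that fold. When L peaks of fold below 8 were dropped from both groups before the overlap was taken, 5.02% of healthy one-group peaks met a healthy M-H peak and 41.1% of lymphoma one-group peaks did. The lymphoma one-group peaks that met a lymphoma M-H peak only were on shores in 53.2% and on islands in 13.4%, and the healthy one-group peaks that met neither were on shores in 7.22% and on islands in 0.537%.

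**Figure D3:**
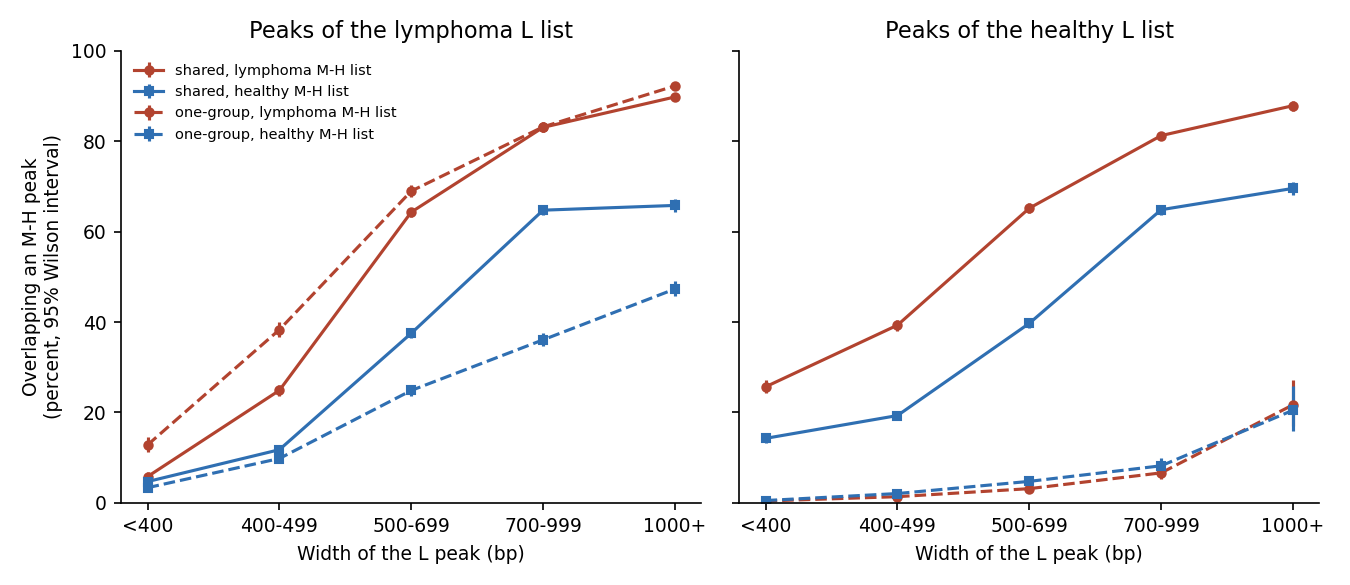
Share of L peaks that overlap a peak of the lymphoma (red) or healthy (blue) M-H list (percent, with 95% Wilson intervals) by width of the L peak, for shared (solid) and one-group (dashed) peaks. For the lymphoma M-H list, lymphoma one-group peaks lie above the shared ones under 700 bp (12.8% against 5.80% under 400 bp) and close to them from 700 bp on, and healthy one-group peaks reach at most 21.7%, at 1000 bp or more.

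Peaks were assigned by the authors to 16813 genes. At least 5 one-group lymphoma peaks were assigned to 253 of them (1.50%) and at least 5 one-group healthy peaks to 245 (1.46%), and 62 genes were in both sets. At least 10 were assigned to 41 genes in lymphoma and 28 in healthy dogs. Among the 248 genes with 20 or more peaks, 86 had more one-group lymphoma and 141 more one-group healthy peaks. Without peaks of fold below 8 in either group, 158 genes in lymphoma and 28 in healthy dogs had at least 5 one-group peaks. That cut shortens the healthy list more. By the calls on the full lists it keeps 6787 one-group and 21332 shared lymphoma peaks, against 3953 and 17082 healthy ones. The 158 and 28 genes rest on calls taken anew after the cut. By these, 50.8% of the remaining lymphoma and 68.1% of the remaining healthy peaks were shared. The part of list length in these gene counts was not tested. Gene length adds to such counts and was not used here. The counts per gene below are to be read against the one-group peaks of the whole lists. Of all lymphoma one-group peaks 44.2% were on shores, and 65.5% met a lymphoma and 27.0% a healthy M-H peak. Of all healthy one-group peaks 7.93% were on shores, 1.82% met a lymphoma and 2.38% a healthy M-H peak, and the median width was 397 bp.

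The genes with the largest lymphoma counts were PTPRN2 and SHANK2. PTPRN2, a receptor-type phosphatase family member of secretory vesicles, had 39 lymphoma peaks, of which 32 were one-group, and 8 healthy peaks, of which 2 were one-group. Its lymphoma one-group peaks ran from chr16:19899720 to 20555893, and 19 of the 32 met a lymphoma M-H peak while 11 met a healthy one. SHANK2, a scaffold protein of excitatory synapses on chromosome 18, had 26 one-group peaks among 31 in lymphoma and 2 among 8 in healthy dogs. Of the 26 peaks in SHANK2, 13 were on shores, 24 met a lymphoma M-H peak and 8 a healthy one. In both genes 6 of the 8 healthy L peaks were shared.

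Other genes had many lymphoma one-group peaks and fewer in the healthy L list, though each of them also held peaks in the healthy M-H list. PRDM16, a zinc-finger transcription factor of blood stem cells and brown fat, had 18 lymphoma peaks, all one-group, and 1 healthy peak, also one-group. Of the 18 in PRDM16, 15 met a lymphoma M-H peak, 7 met a healthy one, 9 were on shores and all lay in the gene body. TRABD2B, a membrane protease that inactivates WNT ligands, had 18 one-group peaks among 20 in lymphoma and 0 among 2 in healthy dogs. AGAP1, which regulates Arf GTPases in membrane traffic, had 19 among 26 and 0 among 7. KCND3, a voltage-gated potassium channel, had 12 among 17 and 0 among 5. GSE1, a protein found with histone deacetylase complexes, had 18 among 25 and 2 among 9. GLI3, a transcription factor of hedgehog signalling, had 15 among 22 and 3 among 11. The kinase gene RPS6KA2 had 16 among 21 in lymphoma and 4 among 9 in healthy dogs, and the sortilin-family receptor gene SORCS2 had 15 among 23 and 5 among 13. In every one of these genes the lymphoma one-group peaks outnumbered the healthy ones by at least 10. The genes were named for large lymphoma counts or a large excess, so this follows largely from the choice.

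Other large genes had many one-group peaks in both lists. PRKG1, a cGMP-dependent protein kinase, had 20 one-group peaks among 32 in each. CSMD1, a very large transmembrane regulator of complement, had 21 among 45 in lymphoma and 15 among 39 in healthy dogs. The neuron navigator gene NAV2 had 19 among 40 and 15 among 36, and NTM, which encodes an adhesion molecule of the IgLON family, 19 among 36 and 13 among 30. In CSMD1 11 of the 21 lymphoma one-group peaks and 0 of the 15 healthy ones were on shores, and 16 against 1 met an M-H peak of the same group, while 8 of the lymphoma ones met a healthy M-H peak. In PRKG1 8 of the 20 lymphoma and 0 of the 20 healthy one-group peaks were on shores, and their median widths were 890 and 429.5 bp. These differences within a gene are of the kind that the whole lists show.

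After PRKG1, with its 20 in each list, the healthy list had its largest counts in WWOX, CAMTA1 and TENM4. WWOX, an oxidoreductase gene that spans a common fragile site in human, had 20 one-group peaks among 38 in healthy dogs and 5 among 25 in lymphoma. CAMTA1, a calmodulin-binding transcription activator, had 17 among 29 and 2 among 14. TENM4, a teneurin of neural connections, had 16 among 33 and 3 among 20. ASIC2, an acid-sensing ion channel, had 15 among 25 and 2 among 13. NAALADL2, a gene of little-known function, had 14 among 30 and 1 among 17. The splicing factor gene RBFOX1 had 14 among 28 and 5 among 19, and the IgLON gene OPCML 14 among 22 and 7 among 15. The kinase gene MAST4 had 12 among 23 and 2 among 13, the calcium-binding protein gene CALN1 12 among 22 and 2 among 10, the muscle membrane-repair gene DYSF 10 among 15 and 1 among 6, and the calcium channel subunit gene CACNA2D3 10 among 18 and 1 among 9. The median width of these peaks was 389 bp in WWOX, 490 bp in CAMTA1 and 444.5 bp in TENM4, against 397 bp over all healthy one-group peaks. None of the 20 peaks in WWOX, the 17 in CAMTA1 and the 16 in TENM4 was on a shore or met a healthy M-H peak, both of which are rare in the whole list.

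**Figure D4:**
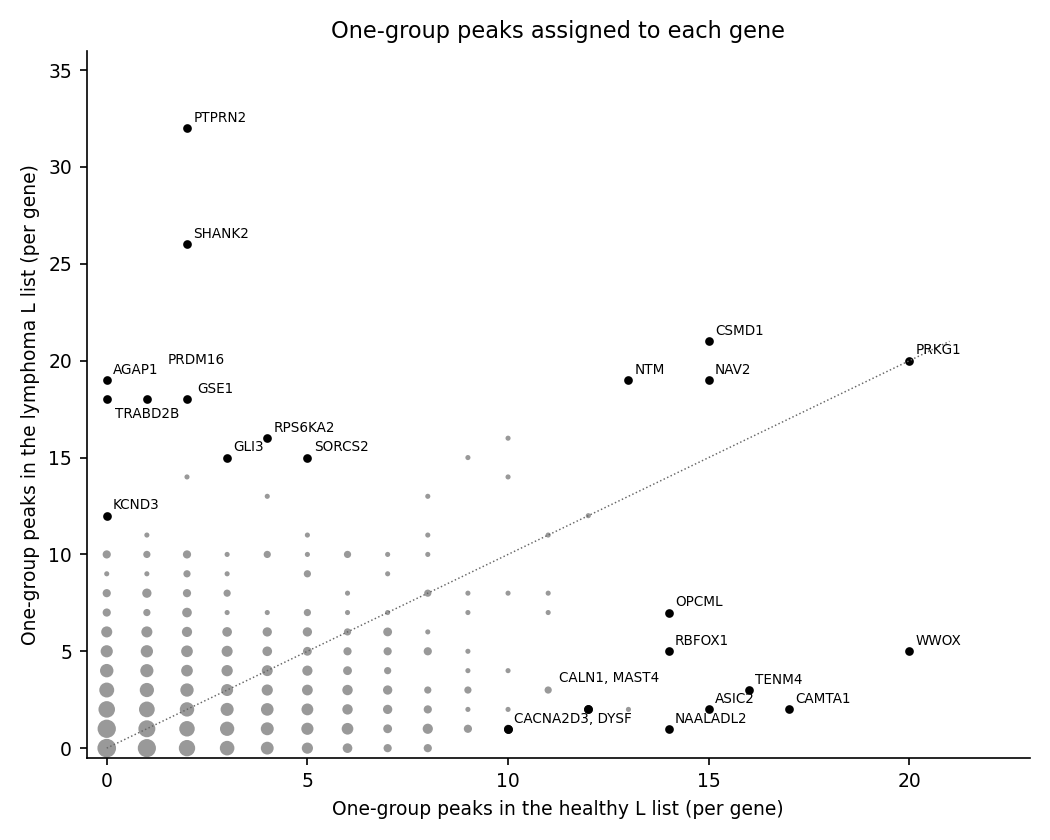
One-group peaks assigned to each of 16813 genes in the healthy L list (x axis) and the lymphoma L list (y axis). Grey points grow with the number of genes at that place, black points are genes named in the text, and the dotted line marks equal counts. PTPRN2 (32 against 2) and SHANK2 (26 against 2) stand at the top left, WWOX (20 healthy against 5 lymphoma) at the lower right and PRKG1 (20 in each) on the line.

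Among enhancer-flagged peaks, the genes with the most lymphoma one-group ones were SPTBN1, TNS1, ETS1, GSE1 and CLEC16A. SPTBN1, a spectrin of the membrane skeleton, had 5 of 7 enhancer peaks without a healthy partner. TNS1, which links integrins to actin, had 4 of 5, and ETS1, a transcription factor of lymphocytes, had 4 of 5. CLEC16A, a gene of autophagy, had 3 of 3 and GSE1 3 of 5. In the healthy list these were TCF7L2, a transcription factor of WNT signalling, with 3 of 4, the formin gene FMNL3 with 3 of 4, the RNA-binding protein gene MSI2 with 2 of 3, the calcium channel gene CACNA1D with 2 of 3 and the integrin gene ITGA9 with 2 of 2. The genes were named for these counts of 2 to 5 one-group peaks. The other list held one-group enhancer peaks in some of them. In healthy dogs they were 1 of 3 in SPTBN1, 1 of 2 in TNS1 and in ETS1, 1 of 1 in CLEC16A and 0 of 2 in GSE1. In lymphoma they were 1 of 2 in CACNA1D and 0 of 1 in each of TCF7L2, FMNL3 and MSI2. ITGA9 had no lymphoma enhancer peak.

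Among named genes, the gene-body one-group peaks of highest fold in lymphoma lay in DSC3, CPD, PRICKLE2, KCNH5 and JAKMIP2. DSC3 encodes a desmosomal cadherin. Its peak at chr7:58412835-58413525 on CanFam3.1, 65 bp from the start in coding sequence and on a shore, had a fold of 21.9 and was 89990 bp from the nearest healthy peak. The folds of the others were 20.9 in CPD, a carboxypeptidase, 20.4 in PRICKLE2, a planar polarity gene, 20.1 in KCNH5, a potassium channel, and 19.6 in JAKMIP2. Those in CPD, on an island, and JAKMIP2, on a shore, lay 579 and 1139 bp from the start. Those in PRICKLE2 and KCNH5 lay 164767 and 62943 bp from it. All 5 overlapped a lymphoma M-H peak, and the one in KCNH5 overlapped a healthy M-H peak too. In the healthy list the highest were SORCS3 (15.1), TMCC3 (14.8), AGTR1 (14.8), GUCY1A2 (14.3) and ABLIM3 (14.2). None of these 5 overlapped a lymphoma M-H peak, and those in TMCC3 and ABLIM3 overlapped a healthy one. The peak in AGTR1, the angiotensin II receptor gene, lay 21 bp from a lymphoma peak, the smallest gap in either list. It was on a shore 769 bp from the start.

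The widest one-group lymphoma peaks assigned to named genes were 2672 bp in KCNK12, 2617 bp in T, the brachyury gene, 2578 bp in LARP4B, 2542 bp in RUNX1 and 2539 bp at C1QL2. That of RUNX1, a transcription factor of blood cell formation, lay in an intron shore at chr31:30186461-30189002 with a fold of 6.09. Their folds were all below 6.5, and 4 of the 5 met a lymphoma M-H peak. The widest healthy ones were 2019 bp in DOPEY2, 1942 bp in SOX7, 1911 bp in ZNF574, 1903 bp in ZBTB48 and 1743 bp in PCDH18, and of these 4 met a lymphoma and 3 a healthy M-H peak. Among shared peaks at named genes the highest fold in either list was upstream of DEGS1, a sphingolipid desaturase gene, at 30.3 in lymphoma and 31.6 in healthy dogs. The shared intronic peak of PDGFC, a growth factor gene, followed in lymphoma at 28.7, with 26.6 in healthy dogs, and that of GPHN at 28.1 and 22.6. The widest shared lymphoma peaks at named genes were wider than their partners, with 2315 against 1630 bp at FNDC1 the closest of the 5. Others were 2520 against 1255 bp at AVPR1A, the vasopressin receptor gene, and 2470 against 1208 bp at PITX1, a homeobox gene of limb and pituitary. For the 5 widest shared healthy peaks the lymphoma partner measured 1515 bp against 2241 bp at ANXA10, 1952 against 2237 bp at MBOAT2, 1697 against 2195 bp at RIPK1, 1499 against 2180 bp at MEIS1 and 2050 against 2098 bp at GPD2.

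One-group lymphoma peaks also followed one another along the chromosome in longer runs, a run being consecutive one-group peaks of 1 list with no peak of the other list between them. There were 363 runs of 5 or more peaks in lymphoma, holding 13.8% of its one-group peaks, and 95 in healthy dogs, holding 3.39%. The longest lymphoma run had 21 peaks over 532 kb at chr2:79953821-80486159, with 10 in IGSF21 and 1 at PAX7, a transcription factor of muscle precursors. Of these 21, 17 met a lymphoma M-H peak and 3 a healthy one. A run of 20 peaks at chr9:49868275-50070750 crossed ADAMTSL2, FAM163B, DBH and SARDH, and the run of 17 at chr5:57815482-57974947 lay wholly in PRDM16. Runs of 16 crossed SPNS2 and PITPNM3 on chromosome 5 and SLC6A3, the dopamine transporter gene, on chromosome 34. The longest healthy run had 9 peaks at chr7:66228149-66515885, across ESCO1, MIB1 and GREB1L, and a run of 8 peaks lay wholly in ROR1, an orphan receptor tyrosine kinase gene, at chr5:46013570-46247332. None of the 9 and 8 peaks in these healthy runs was on a shore or met an M-H peak of either group, as for most healthy one-group peaks.

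The one-group share varied between chromosomes. In lymphoma it ran from 23.7% on chromosome 32 to 47.9% on chromosome 38, and in healthy dogs from 23.7% on X to 43.8% on chromosome 38. In the last 5 Mb of the autosomes, counted back from the last peak, the lymphoma share was 45.8% (44.4 to 47.2), against 35.9% in the rest. That difference held on islands and shores, 60.8% against 51.7%, and away from them, 35.3% against 26.9%. The healthy shares were 36.9% and 35.6%. Away from islands and shores they were 43.1% (41.4 to 44.7) against 40.9% (40.4 to 41.5), and on them 15.4% against 15.5%. Sex is not given in the labels, and the number of X chromosomes per group was not tested for its part in the values of X.

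**Figure D5:**
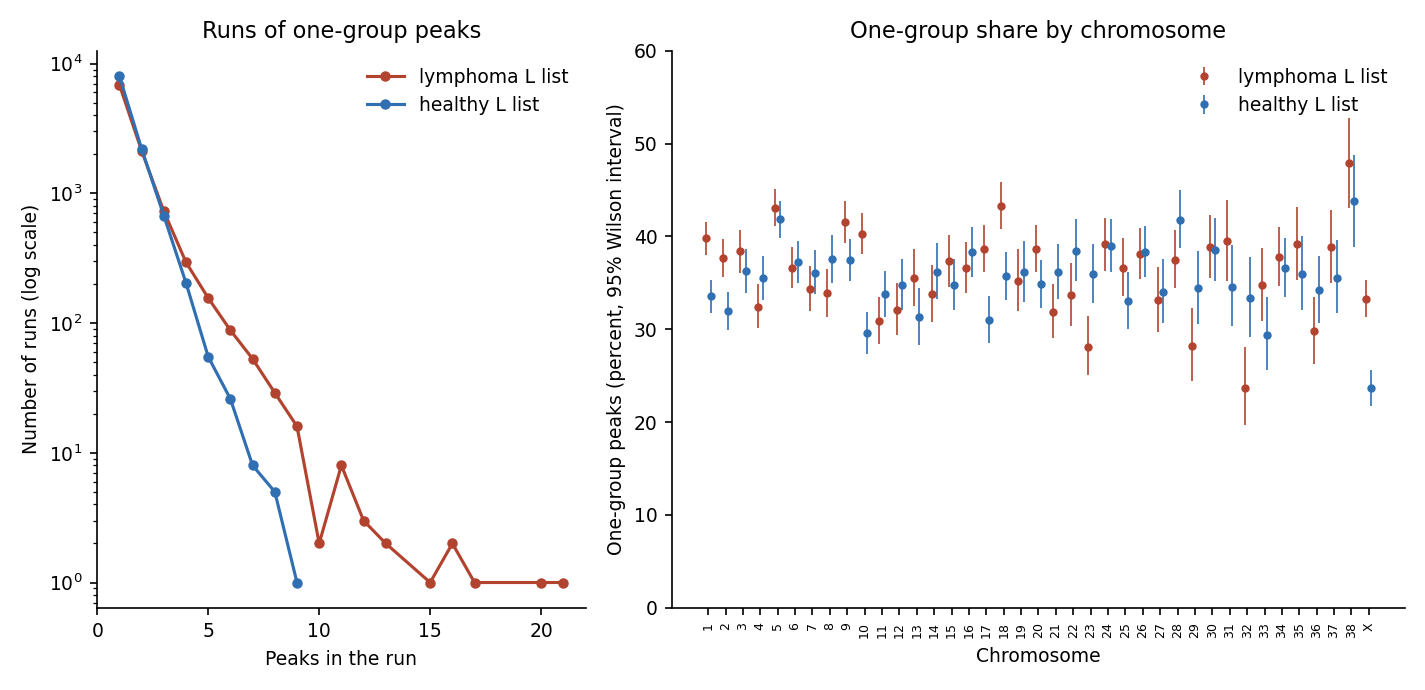
Left, number of runs of consecutive one-group peaks (log scale) by peaks per run for the lymphoma (red) and healthy (blue) L lists. Right, one-group share per chromosome (percent, with 95% Wilson intervals). Lymphoma runs reach 21 peaks and healthy runs 9, and chromosome 38 has the highest share in both lists.

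At the level of genes, 11557 had a gene-body peak in at least 1 L list. Of these 7729 had one in both, 1773 in lymphoma only (15.3%) and 2055 in healthy dogs only (17.8%). Without peaks of fold below 8 the order turned, with 2158 genes in lymphoma only and 1257 in healthy dogs only. That cut left fewer healthy peaks, 3953 one-group and 17082 shared by the full-list calls, against 6787 and 21332 in lymphoma. The part of list length in this turn was not tested. The gene lists below are read against 38.6% one-group among lymphoma and 36.1% among healthy peaks assigned to any gene, and against those 15.3% and 17.8%. Their shares were not split by islands and shores. Of all lymphoma peaks 67.0% on islands and 51.2% on shores were one-group, and of all healthy peaks 12.5% and 15.8%.

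Of 39 HOX genes, the homeobox genes of body patterning, 21 had a peak. Of their 32 lymphoma peaks 21 were one-group (65.6%) and of their 15 healthy peaks 4 (26.7%). The lymphoma share lies between those of all lymphoma shore and island peaks, and the healthy share above both healthy ones. Gene-body peaks were in lymphoma only for 6 of 11 members and in healthy dogs only for 1. HOXC4 had 3 one-group lymphoma peaks of 4, and HOXB8 and HOXB13 had 2 of 2 each with no healthy L peak. All of these met lymphoma M-H peaks, and 1 in HOXC4 and 1 in HOXB8 met a healthy M-H peak. The 3 in HOXC4 were on shores and the 2 in HOXB8 on islands, and HOXB13 had 1 flagged as island and 1 as shore. HOXB7 had 1 one-group peak in each list. HOXC12 had 1 in healthy dogs, which met a lymphoma M-H peak, and no lymphoma L peak. More lymphoma one-group peaks were found in 13 members and more healthy ones in 1. WNT antagonists had 35 one-group of 55 lymphoma peaks (63.6%) and 15 of 36 healthy peaks (41.7%), over 23 of 30 members. Of the 23, 13 had more lymphoma and 7 more healthy one-group peaks. The secreted antagonists DKK3, with 4 peaks, and FRZB, with 3, had lymphoma one-group peaks and no healthy L peak. On shores were 1 of those in DKK3 and all 3 in FRZB. The healthy M-H list held 1 peak at DKK3 and 3 at FRZB, met by 1 and 2 of these lymphoma peaks. NKD1, an inhibitor of the pathway inside the cell, had 5 one-group of 11. SOST went the other way, with 3 healthy one-group peaks against 1 in lymphoma.

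Large fragile-site genes, very long genes that break readily under replication stress, were measured for 34 of 36 members. Their one-group share was below the background in lymphoma, 26.8% (91 of 340), and above it in healthy dogs, 42.9% (188 of 438). More one-group healthy than lymphoma peaks were found in 22 of the 34, and the reverse in 9, among them CSMD1 and SDK1 (9 against 7). CNTNAP2, a neuronal adhesion gene, had 11 one-group healthy and 7 lymphoma peaks. Transmembrane receptor phosphatases had 51.9% and 40.7%, with PTPRN2 giving 32 of the 70 lymphoma one-group peaks. PTPRT had 8 one-group peaks of 16 in healthy dogs and 0 of 8 in lymphoma, and PTPRG 6 of 8 against 1 of 3.

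Axon guidance genes had shares of 42.6% and 34.1%. The secreted guidance cue SLIT2 had 8 one-group of 17 lymphoma peaks and 2 of 11 healthy ones, and SEMA5B 7 of 8 and 0 of 1. Of these lymphoma one-group peaks, 7 of the 8 in SLIT2 and 5 of the 7 in SEMA5B met a healthy M-H peak. PLXNA4 had 11 of 26 in both lists, and SEMA5A 3 of 17 and 9 of 23. Receptors for glutamate, GABA, glycine and acetylcholine stood near the background, with 36.3% and 37.6%. GRIK3 had 5 of 7 one-group peaks in lymphoma and 0 of 2 in healthy dogs, and GABBR2 3 of 17 and 11 of 25. Histone modifiers and Polycomb genes had 43.1% and 39.0%, with PRDM16 giving 18 of the 53 lymphoma one-group peaks. More lymphoma one-group peaks were found in 17 of these genes and more healthy ones in 22. NSD1, a histone methyltransferase gene, had 4 healthy one-group peaks of 5 against 1 of 2 in lymphoma. Genes recurrently altered in B-cell lymphoma had 26.8% in both lists, 19 of 71 peaks in each, against 38.6% and 36.1% for all genes. No interval was taken for the gene lists. EP300, an acetyltransferase gene, had 3 of 4 in lymphoma and 1 of 2 in healthy dogs, and FHIT 0 of 5 and 3 of 8. Housekeeping genes had 7 of 22 (31.8%) and 7 of 23 (30.4%).

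The labelled cell types could be read only from peaks at marker genes, since no expression was measured. B-cell identity genes had a peak in 23 of 36 members, and 23 of 57 lymphoma peaks (40.4%) and 15 of 50 healthy peaks (30.0%) were one-group. PAX5, the B-cell commitment factor, had 4 one-group of 14 lymphoma peaks and 1 of 11 healthy ones, and EBF1 2 of 8 in both. TNFRSF13B, with 0 of 2 in lymphoma and 2 of 5 in healthy dogs, and PRDM1, with 1 of 2 and 2 of 3, went the other way. Of the 23 members, 12 had more lymphoma and 7 more healthy one-group peaks. T-cell and cytotoxic genes, measured in 33 of 45 members, had the higher shares, 35 of 57 (61.4%) and 21 of 43 (48.8%). BCL11B, a transcription factor of T-cell commitment, had 6 lymphoma peaks, all one-group gene-body peaks of which 5 met a lymphoma and 2 a healthy M-H peak, and 1 healthy L peak. IL2RB, an interleukin receptor chain of T and natural killer cells, had 3 lymphoma one-group peaks and no healthy L peak, but 2 of the 3 met healthy M-H peaks. CD5 and THEMIS had more one-group peaks in healthy dogs, 2 against 0 and 3 against 1. Monocyte and granulocyte genes had 12 of 27 (44.4%) and 10 of 25 (40.0%) over 17 of 36 members, and stroma and endothelium genes 22 of 52 (42.3%) and 13 of 42 (31.0%) over 19 of 30. The part that the cell makeup of node and blood has in these counts was not tested.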

How the data were processed

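MethylCap-seq libraries labelled L from 5 dogs with lymphoma and 3 healthy dogs were used, with the M-H libraries of the same dogs as a further readout. The submitters' processing notes name BWA, MACS2 and the build CanFam3.1 but give no version or setting. The authors deposited 1 list for each peak group that the labels name, and no source used here says whether reads or peaks were pooled. The deposited fold enrichment is a ratio to a background whose source is not given, and no list holds a value below 6. Positions, distances, gene assignments and flags are the authors', per the file headers. The enhancer flag's source is not given.

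Starts were read as 0-based and printed 1-based. In 4 lymphoma and 2 healthy L rows the gene columns were displaced, so these peaks count as intergenic. Of 54 lymphoma gene symbols turned into dates, 51 were restored from the gene description. Of 16813 symbols, 14736 matched a RefSeq table of the assembly UU_Cfam_GSD_1.0, used for names only. Overlaps, gaps and runs were computed with Python 3.11.15, pandas 2.3.3, numpy 2.4.6 and scipy 1.17.1, and tested on simulated peaks. Figures used matplotlib 3.10.9.

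Members and gene lists were chosen with earlier results of these data known. Genes beginning with LOC were not named. The text names, per list, the 10 genes with the most one-group peaks, 5 more with the largest excess, the 5 with the most one-group enhancer peaks, the 5 highest-fold gene-body and 5 widest one-group peaks, the 5 longest runs, up to 3 members of each of 13 gene lists, and the 5 widest and 5 highest-fold shared peaks; some of these are not reported here by name but remain in the counts. Groups were described by counts, medians with binomial intervals of the ranked values, and shares with Wilson intervals, with no test. The 5 alternatives tried were an overlap of 50% of the shorter peak, a gap of up to 500 bp, peaks of 500 bp around the midpoint, a minimum fold of 8 in both groups, and autosomes only. Promoter CpG content was planned but not analysed here, since it needs sequence.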

Additional observations from a re-analysis of the deposited data

How the results depend on the processing

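No paired analysis was possible because each group has 1 pooled peak list, and no dog could be left out for the same reason. With an overlap of 50% of the shorter peak, the 18 results that use the overlap moved by less than their counting interval or, for counts of genes, by less than 1.5 times; the 2 counts of genes with gene-body peaks in 1 list only do not use it. With gaps up to 500 bp counted as shared, 8 moved. The shared share was 64.2% in lymphoma and 65.8% in healthy dogs, the one-group share of lymphoma islands 64.3% and of gene bodies 33.5% (lymphoma) and 36.4% (healthy), the lymphoma one-group share meeting M-H peaks 66.7% (lymphoma) and 27.9% (healthy), and the healthy fold ratio of shared to one-group peaks 1.22. With peaks of 500 bp around the midpoint, 4 moved: shared shares of 62.5% and 64.1%, healthy islands 20.3%, and healthy one-group peaks meeting healthy M-H peaks 2.75%. On autosomes only, the healthy shared share was 64.3%.

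Dropping peaks of fold below 8 from both groups moved 17 results and turned 1. The ratio of shared to one-group median width in lymphoma went from 1.01 to 0.983. In lymphoma the shared share was 50.8%, the fold ratio 1.31, the one-group share of enhancers 55.8%, islands 74.5% and gene bodies 48.1%, the share meeting M-H peaks 79.8% (lymphoma) and 41.1% (healthy), and 158 genes had at least 5 one-group peaks. In healthy dogs the shared share was 68.1%, the width ratio 1.46, the fold ratio 1.13, the one-group share of islands 15.4% and gene bodies 35.0%, the share meeting M-H peaks 5.02% (healthy) and 5.09% (lymphoma), 28 genes had at least 5 one-group peaks, and 1257 had gene-body peaks in healthy dogs only, against 2158 in lymphoma only. The cause was not tested. Depth is unknown, so a region without a peak is not shown to be unmethylated, and the length of a list can move with depth or with the number of dogs.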
